A study of Mus musculus with 2 samples.

Results

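The 10 ETS transcription factors of endothelium and blood, Etv2, Fli1, Erg, Ets1, Ets2, Elk3, Etv6, Elf1, Elf2 and Spi1, were followed in mouse Flk1+Tie2+ cells with and without a pulse of Mesp1. They were chosen by gene symbol, with earlier results of these data known. Every probe set that the array's annotation assigns to 1 of these symbols was taken, whatever its signal: 24 of 45037 probe sets, for 10 of 18193 named genes. The dox sample came from A2lox.Mesp1 embryonic stem cells of the 129/Ola background, which carry a Mesp1 transgene that doxycycline (dox) switches on, and had been given dox at 250 ng/mL from day 2 and kept on it until day 4. The no dox sample came from the same A2lox.Mesp1 line and background and was left untreated. Both were grown as embryoid bodies for 5 days and sorted for Flk1 and Tie2, 2 surface receptors of endothelium, and each was hybridised to 1 Affymetrix array. Cells without the transgene that had received dox were not analysed here, so an effect of dox itself and an effect of Mesp1 cannot be told apart.

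ETS factors share a winged helix-turn-helix domain that binds DNA around a GGAA core. In the mouse embryo Etv2 acts briefly in mesoderm to start both the blood and the endothelial programme, and Fli1, Erg and Ets1 then help to maintain endothelial genes, while Spi1 (PU.1) directs myeloid and lymphoid development. Elk3 and Etv6 act mainly as repressors, and Etv6 is needed for blood stem cells in the bone marrow.

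With 1 array per condition there was no replicate error, no test and no p-value, and every difference below compares these 2 samples only. Signals are linear intensities in arbitrary units, and log2 differences, with no dox subtracted from dox, are on the log2(signal + 16) scale, where the added 16 shrinks the changes of dim probe sets. Folds are taken on that scale too and so are smaller than the plain ratio of a dim pair of signals. The median signal was 127 on the dox array and 112 on the no dox array. The genes of the sort had like signals on both arrays, 10733 with dox and 10140 without dox for Kdr (Flk1), and 9277 with dox and 8799 without dox for Tek (Tie2). All 7 endothelial markers examined had signals above the array medians. Signals of different probe sets were not set against each other as levels of their genes, because each probe set has its own affinity.

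Most ETS probe sets were lower with dox, and few were lower by much. By any amount 15 of the 24 probe sets were lower and 9 higher, against 43.6% lower and 55.6% higher among all probe sets. A total of 3, 1 each of Etv2, Fli1 and Erg, were 2-fold or more lower, where 1.98% of all probe sets were. A further 1, of Elf1, was 2-fold or more higher, where 4.84% of all probe sets were. The median log2 difference was -0.18 over the 24 ETS probe sets and 0.05 over all probe sets. When each gene was represented by its probe set with the highest mean signal (its brightest), only Etv2 was 2-fold or more lower, where 2.04% of all genes were, and only Elf1 was 2-fold or more higher, where 4.77% of all genes were. By that measure 7 of the 10 genes were lower by any amount and 3 higher, against 44.6% lower and 54.9% higher among all genes, and the median over the 10 genes was -0.18, against 0.04 over all genes. These are bulk samples, in which fewer cells of a type and less RNA per cell cannot be told apart.

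**Figure D1:**
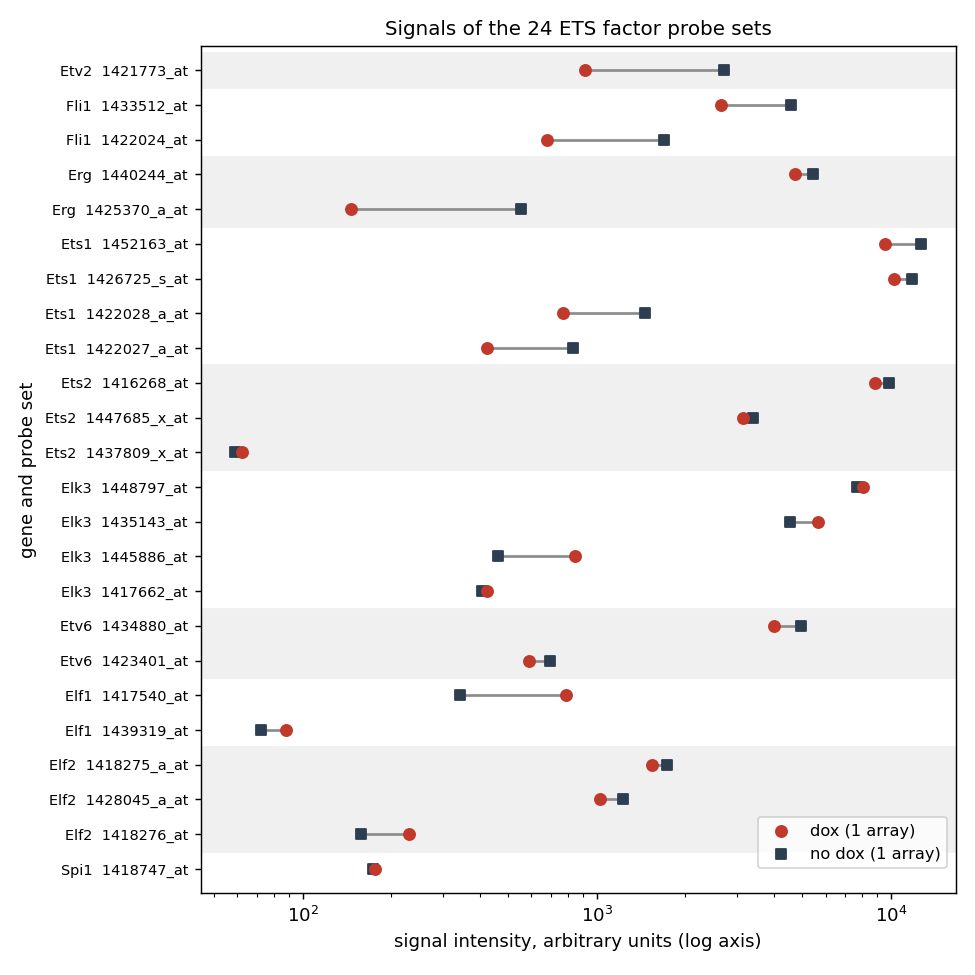
Signal intensity (arbitrary units, log axis) of each of the 24 ETS probe sets with dox (red circles) and without dox (dark squares), 1 array each, joined by a grey line. The dox signal lies to the left of the no dox signal for the probe sets of Etv2, Fli1, Erg, Ets1 and Etv6, and to the right of it for those of Elk3, Elf1 and Spi1, with Ets2 and Elf2 mixed.

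Other scalings were set beside the deposited values, since these differences are small and the array medians differ. Scaling both arrays to 1 median moved the median of all genes by -0.15, and quantile normalization moved it by -0.08. Among all genes 867 were 2-fold or more higher and 372 lower as deposited, against 666 and 562 after median scaling. Relative to the median of all genes, the median of the 10 ETS factors was -0.22 as deposited, -0.25 after median scaling and -0.19 after quantile normalization. A total of 15 probe sets were lower and 5 higher under all 3 scalings. The direction of the other 4, the dimmest of Ets2, 2 of Elk3 and the single one of Spi1, depended on the scaling. The matching shares of all probe sets are not given here, so these counts have no background to be read against.

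Etv2, the factor that starts the haemangiogenic programme, was the ETS factor with the largest drop by brightest probe set. Its single probe set, 1421773_at, gave a signal of 913 with dox and 2716 without dox, 2.94-fold lower with dox (log2 difference -1.56). Among all probe sets 0.400% differed as far or further in this direction. Under the 8 alternatives tried its log2 difference ran from -1.74 to -1.51. Only the changes of pseudocount and scaling could move it, as the other alternatives left its single probe set in place. As no other probe set names Etv2, the agreement of probe sets could not be checked for it. Its promoter is shown because Etv2 itself binds GGAA and because it holds an unusual number of these cores. The window runs from 250 bases before to 50 bases after the RefSeq start, at chr7:30635803-30636102 (GRCm38.p6, minus strand), 5′ to 3′, with every GGAA, on either strand, in capitals:
Etv2: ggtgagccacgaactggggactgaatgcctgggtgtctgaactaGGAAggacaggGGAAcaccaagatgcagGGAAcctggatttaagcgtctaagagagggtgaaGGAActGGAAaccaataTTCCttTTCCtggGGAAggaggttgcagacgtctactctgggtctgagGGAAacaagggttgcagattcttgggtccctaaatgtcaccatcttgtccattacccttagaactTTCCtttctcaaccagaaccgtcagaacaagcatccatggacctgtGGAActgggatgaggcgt
GGAA or its reverse complement TTCC stood at 11 positions in these 300 bases. Of 32851 RefSeq promoter windows of the same length, 96.0% held at least 1, with a median of 3, and 0.253% held 11 or more. The Etv2 window held none of the longer ETS motif CCGGAA, which contains GGAA and is present in 14.9% of windows, no E-box CANNTG (72.3% of windows), the class of site bound by bHLH factors such as Mesp1, and no GATAA (25.4% of windows). A match is a string of letters and not a measured binding site, and a missing one says only that these letters are not in this window.

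Fli1, which maintains endothelial and megakaryocyte genes, was lower with dox by both of its probe sets. The brightest, 1433512_at, gave 2651 with dox and 4569 without dox, 1.72-fold lower (log2 difference -0.78). The other, 1422024_at, gave 675 with dox and 1691 without dox, 2.47-fold lower (log2 difference -1.30). They thus stood on opposite sides of 2-fold, and their mean was -1.04.

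Erg, a close relative of Fli1 that preserves endothelial identity, was lower by both probe sets as well, but by very different amounts. The brightest, 1440244_at, gave 4718 with dox and 5433 without dox (log2 difference -0.20). The other, 1425370_a_at, gave 146 with dox and 552 without dox, 3.51-fold lower (log2 difference -1.81), the lowest log2 difference among the 24 ETS probe sets. The gap of 1.61 between the pair was the widest within any of the 10 factors. For comparison, probe sets of the same gene had a pooled SD of 0.47 over 19 ETS probe sets of 7 genes and of 0.38 over 13823 probe sets of 5173 genes, counting probe sets at or above the array median on either array. The RefSeq table lists 3 start sites for Erg, and the annotation used here does not say which transcripts each probe set detects.

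Ets1, which is expressed in endothelium and T cells, was lower by all 4 of its probe sets, in 2 groups. Those designed from 1 source sequence, 1452163_at and 1426725_s_at, gave 9536 and 10229 with dox, against 12683 and 11831 without dox (log2 differences -0.41 and -0.21). Those designed from another, 1422028_a_at and 1422027_a_at, gave 766 and 423 with dox, against 1463 and 831 without dox (log2 differences -0.92 and -0.95). None of the 4 reached 2-fold as deposited, and the second pair passed it after median scaling, at -1.10 and -1.12. The dimmer probe set of Fli1 and of Erg, and the dimmer pair of Ets1, showed the larger drop, a pattern seen after the values were known. It did not hold for Etv6 and Ets2, and Elf2 was mixed.

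Ets2, which acts downstream of the Ras pathway and in the trophoblast, differed little. Its probe sets 1416268_at and 1447685_x_at gave 8817 and 3145 with dox, against 9839 and 3395 without dox (log2 differences -0.16 and -0.11). The third, 1437809_x_at, was below the array medians, with 62.0 with dox and 58.8 without dox.

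In the RefSeq gene table Fli1 and Ets1 are neighbours on chromosome 9 and Erg and Ets2 are neighbours on chromosome 16, with 0 protein-coding genes between the members of either pair. By brightest probe sets the neighbours differed by -0.78 (Fli1) and -0.41 (Ets1) in the first pair and by -0.20 (Erg) and -0.16 (Ets2) in the second.

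**Figure D2:**
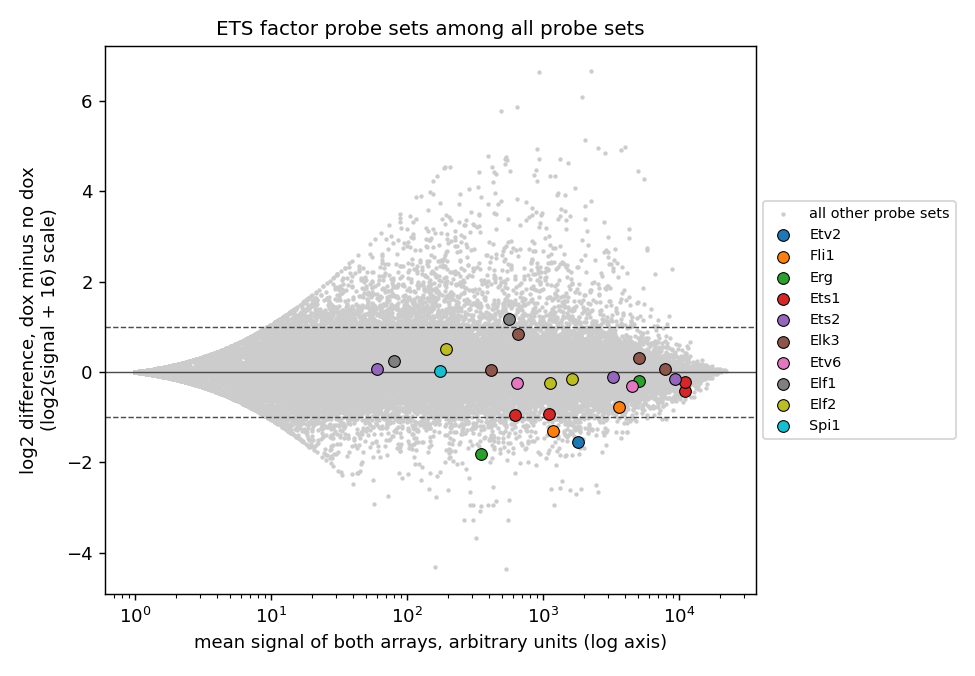
Log2 difference (dox minus no dox, log2(signal + 16) scale) of each probe set against its mean signal over both arrays (arbitrary units, log axis), with the ETS probe sets in colour, all others in grey, and dashed lines at 2-fold. Single probe sets of Etv2 (-1.56), Fli1 (-1.30) and Erg (-1.81) lie below the lower line, and 1 of Elf1 (1.17) lies above the upper line.

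The repressors differed in direction as deposited, but part of the Elk3 probe sets changed direction with the scaling. Elk3 (Net), a ternary complex factor that represses serum response genes and is needed for vessel formation, was higher by all 4 probe sets as deposited, by 0.05 to 0.85. Its brightest probe set, 1448797_at, gave 8019 with dox and 7687 without dox (0.06), and 1435143_at gave 5638 with dox and 4533 without dox (0.31). The largest difference was that of 1445886_at, with 845 with dox and 460 without dox (0.85). The remaining one, 1417662_at, gave 422 with dox and 407 without dox. The direction of 1448797_at and 1417662_at turned after median scaling, to -0.12 for each, and 1417662_at also turned after quantile normalization, to -0.06. Etv6 (Tel) was lower by both probe sets, 1434880_at with 4021 with dox and 4946 without dox (-0.30), and 1423401_at with 588 with dox and 694 without dox (-0.23). These 2 differed from each other by only 0.07.

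Elf1, an activator of endothelial and blood genes of the E74-like group, was the only one of the 10 that was 2-fold or more higher with dox. Its brightest probe set, 1417540_at, gave 789 with dox and 342 without dox, 2.25-fold higher (log2 difference 1.17). Its other probe set, 1439319_at, lay below the array medians and gave 87.9 with dox and 72.1 without dox (0.24). The 2-fold call rests on the first probe set and lies near the threshold, as it was 0.99 after median scaling and 0.70 as the mean of both probe sets. RefSeq gives Elf1 a pair of start sites, and both promoters are shown to set them beside that of Etv2, the factor with the largest drop by brightest probe set. They lie at chr14:79480944-79481243 and chr14:79515424-79515723 (GRCm38.p6, plus strand) and are written 5′ to 3′, with GGAA on either strand in capitals:
Elf1 first start: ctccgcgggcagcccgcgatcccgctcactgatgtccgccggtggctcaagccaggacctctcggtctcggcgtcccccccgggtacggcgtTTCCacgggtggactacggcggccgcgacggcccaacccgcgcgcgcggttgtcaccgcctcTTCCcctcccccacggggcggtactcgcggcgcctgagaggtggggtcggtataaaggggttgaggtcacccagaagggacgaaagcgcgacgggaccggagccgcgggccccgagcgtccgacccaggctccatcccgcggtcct
Elf1 second start: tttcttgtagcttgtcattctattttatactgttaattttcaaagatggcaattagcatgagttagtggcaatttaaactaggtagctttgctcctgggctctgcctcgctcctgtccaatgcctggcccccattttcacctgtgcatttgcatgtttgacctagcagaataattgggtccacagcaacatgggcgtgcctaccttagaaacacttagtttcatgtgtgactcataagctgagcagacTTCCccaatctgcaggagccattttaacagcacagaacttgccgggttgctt
The first window held 2 such cores and a GC content of 73%, and the second held 1 and 44.7%, against 50.7% in the Etv2 window and a median of 52.7% over all windows. At least 2 cores stood in 84.6% of all windows and at least 1 in 96.0%. The second Elf1 window also held 3 E-box motifs CANNTG, as many as 17.6% of all windows reached, and the first held none. An Elf2 window held 3 as well, and an Erg window held 2 (2 or more in 39.6% of all windows). Every other window of these factors held none. Of the 10 factors, 7 had a promoter in the table, with 11 windows in all, and Fli1, Ets1 and Spi1 had none. GGAA stood at 6 positions in the Etv6 window and in 1 of the Elf2 windows (6 or more in 15.7% of all windows), at 4, 2 and 1 positions in the Erg windows, at 2 in that of Elk3 and at 1 in that of Ets2. None of the 11 windows held CCGGAA.

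Elf2 (NERF), the nearest relative of Elf1 in this group, did not share its difference. Its probe sets 1418275_a_at and 1428045_a_at gave 1546 and 1028 with dox, against 1729 and 1227 without dox (log2 differences -0.16 and -0.25). The third, 1418276_at, was higher, with 231 with dox and 158 without dox (0.50), although it was designed from the same source sequence as the first. Without the probe sets whose suffix marks probes shared between transcripts, 1418276_at alone stood for Elf2.

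Spi1, the myeloid and lymphoid member, had 1 probe set, 1418747_at, with 177 with dox and 174 without dox (log2 difference 0.02). Both values lay not far above the array medians of 127 and 112, and its direction turned after median scaling and after quantile normalization, to -0.15 in each.

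The rest of the ETS family showed no difference of 2-fold, where 4.77% of all genes passed it upward and 2.04% downward. Of 16 other family genes 14 had a probe set, and by brightest probe sets 7 were higher and 7 lower, with a median of 0.06 and a range from -0.82 to 0.82, against a median of 0.04 over all genes. Only 7 of the 14 reached the array median on either array. Gabpa, Elk1, Elk4, Etv3, Etv5, Erf and Ehf made up this group and were named after their values were seen. Erf, a repressor regulated by the MAP kinase ERK, differed most among them, with 1290 with dox and 779 without dox (0.72), but its other, dim probe set gave -0.34. Gabpa, a factor of mitochondrial and housekeeping genes, had 3071 with dox and 3438 without dox (-0.16).

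**Figure D3:**
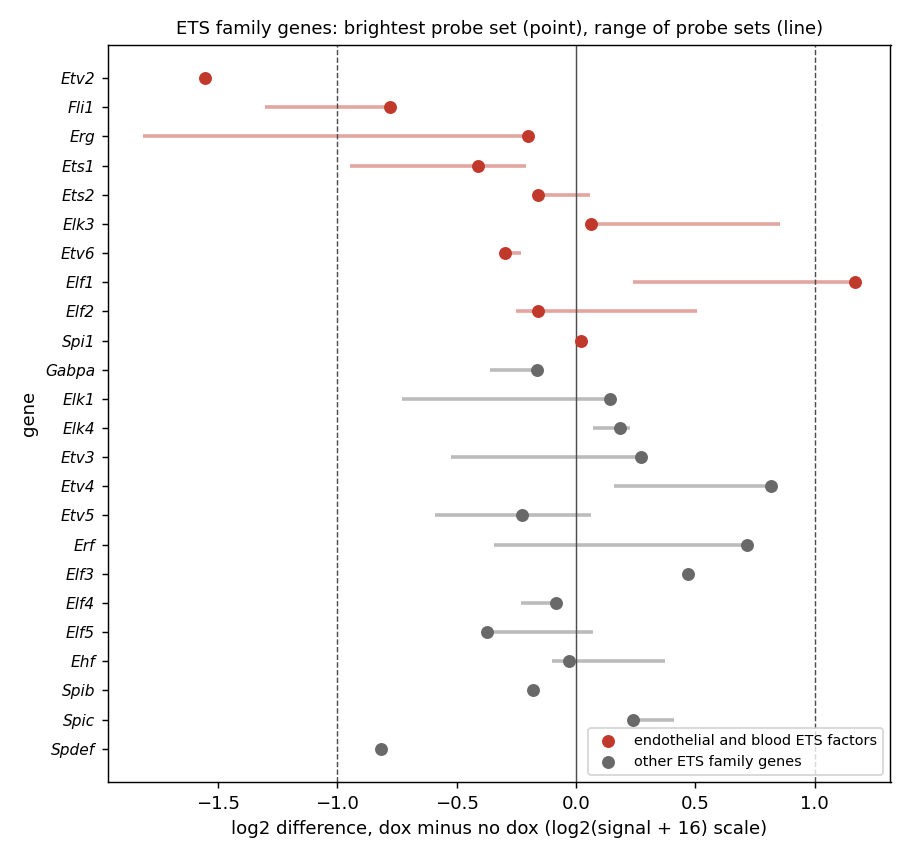
Log2 difference (dox minus no dox, log2(signal + 16) scale) of each ETS gene by its brightest probe set (point), with the range over its probe sets (line) and dashed lines at 2-fold, for the 10 endothelial and blood factors (red) and 14 other family genes (grey). Etv2 at -1.56 and Elf1 at 1.17 are the only points past 2-fold, and the range of Erg, from -1.81 to -0.20, is the widest of the red ones.

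Genes known to act with or under these factors were read from lists drawn up from general knowledge. In blood progenitors Erg and Fli1 bind together with Tal1, Lyl1, Lmo2, Gata2 and Runx1. None of these 5 partners reached 2-fold by its brightest probe set, where 4.77% of all genes passed it upward and 2.04% downward. By any amount 3 were lower and 2 higher, against 44.6% and 54.9% of all genes. Counts over 5 genes do not set the partners apart from all genes. Their median was -0.44, against 0.04 over all genes. Lyl1, a bHLH factor, had 994 with dox and 1904 without dox (-0.93), the adaptor Lmo2 had 4390 with dox and 6684 without dox (-0.60), and the bHLH factor Tal1 had 4207 with dox and 5712 without dox (-0.44). Of the 6 probe sets of Runx1, the brightest gave 0.21, while 2 dimmer ones, below the array medians, gave -1.23 and -1.64. After median scaling Lyl1 passed 2-fold, and the direction of Gata2 (0.13) turned.

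Of 14 early blood and endothelial genes known as targets of Etv2, 10 were lower and 4 higher with dox by any amount, where 44.6% of all genes were lower and 54.9% higher. The list median was -0.16, against 0.04 over all genes. Past 2-fold there was only Robo4, higher with dox. Robo4, a guidance receptor of endothelium, had 667 with dox and 241 without dox (1.41). Flt4, the receptor for VEGF-C, had 1986 with dox and 3178 without dox (-0.67), and its other probe set gave -0.92. Lyl1, given above, was the lowest of the list. Of the 4 higher genes, Kdr, Tek and Gata2 turned to lower after median scaling. Kdr and Tek are the genes of the sort, so in this list and the next they were not free of the selection of the cells. The list shares 4 genes with that of the partners and so is not separate from it. It also shares genes, among them Robo4, Cdh5, Kdr and Tek, with the list of endothelial ETS targets below. That list in turn holds all the endothelial markers given later.

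Of 20 endothelial genes with ETS-dependent enhancers or promoters, 4 passed 2-fold upward with dox, 1 downward and 15 neither, where 4.77% of all genes passed it upward and 2.04% downward. The list median was -0.05, against 0.04 over all genes. Clec14a, an endothelial C-type lectin, had 2445 with dox and 142 without dox (3.96). Vwf, the gene of von Willebrand factor, had 859 with dox and 295 without dox (1.49), and Robo4 came next. The other higher gene, Eng, a TGF-beta coreceptor (1.26), and the single lower one, Cldn5, a tight junction protein with 1350 with dox and 3582 without dox (-1.40), were named after their values were seen. Cdh5, the gene of VE-cadherin and a standard ETS target, had 7948 with dox and 8244 without dox (-0.05).

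Blood genes under Fli1 or Spi1 were mostly dim. Of 9 measured megakaryocyte genes 3 reached the array median on either array. Clec1b, a platelet lectin receptor, had 6115 with dox and 2026 without dox (1.59), Pf4, a platelet chemokine, had 88.4 with dox and 168 without dox (-0.81), and the integrin chain Itga2b had 4865 with dox and 5586 without dox (-0.20). The median of the 9 was 0.16. Among 17 measured myeloid genes 2 were lower by 2-fold or more (2.04% of all genes) and none was higher by that much (4.77% of all genes). By any amount 11 were lower and 6 higher, against 44.6% and 54.9% of all genes, with a median of -0.29. Mpo, the peroxidase of myeloid granules, had 261 with dox and 749 without dox (-1.47), Laptm5, a lysosomal membrane protein, had 1715 with dox and 4039 without dox (-1.23), and Csf3r, the receptor for G-CSF, had 187 with dox and 337 without dox (-0.79). All 5 probe sets of Laptm5 were lower, by -1.83 to -0.85. Only 7 of the 17 reached the array median on either array. This list shares genes, among them Csf1r, with the macrophage markers below.

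Immediate early genes with sites for the serum response factor and Elk proteins were near even. None of 7 passed 2-fold, where 4.77% of all genes passed it upward and 2.04% downward, and their median was 0.07. Among them Ier2 had 4561 with dox and 5755 without dox (-0.33), the zinc finger factor Egr1 had 4935 with dox and 3934 without dox (0.33), and the AP-1 subunit Junb had 820 with dox and 973 without dox (-0.24).

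**Figure D4:**
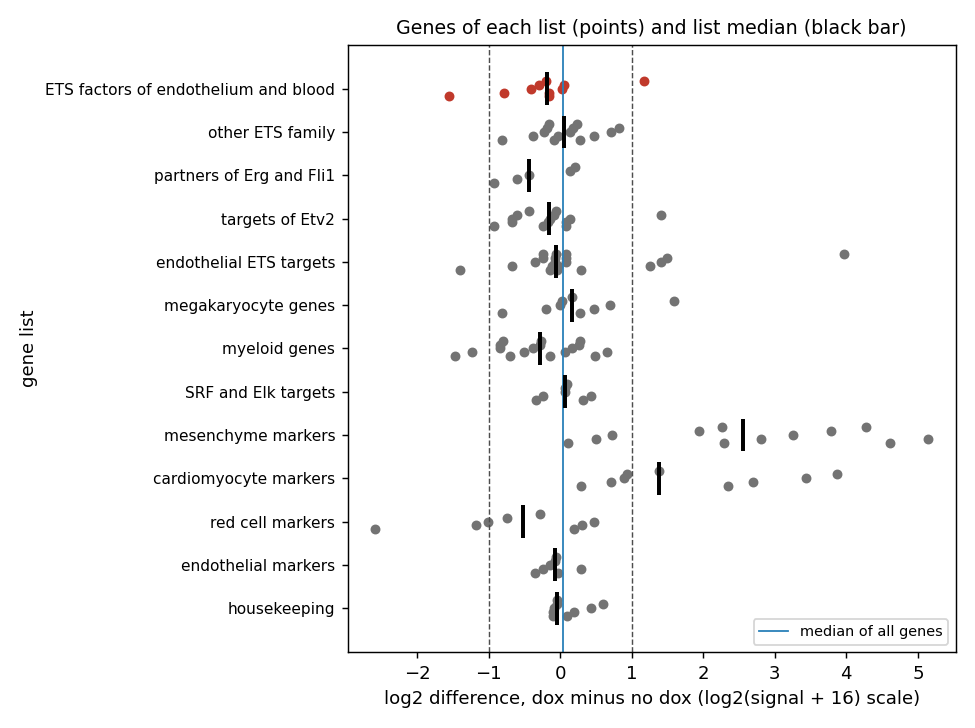
Log2 difference (dox minus no dox, log2(signal + 16) scale) of the genes of each list by brightest probe set (points), with the list median (black bar), the median of all genes (blue line) and dashed lines at 2-fold. Some genes stand in several lists. The medians of the ETS factors (-0.18), the partners of Erg and Fli1 (-0.44) and the targets of Etv2 (-0.16) lie left of the blue line at 0.04, as do those of the myeloid genes (-0.29), red cell markers (-0.51), endothelial ETS targets (-0.05), endothelial markers (-0.07) and housekeeping genes (-0.04), and that of the mesenchyme markers (2.55) lies farthest right.

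Markers of other cell types differed between the same 2 samples. As background for the counts below, 4.77% of all genes were 2-fold or more higher and 2.04% 2-fold or more lower. By any amount 54.9% of all genes were higher and 44.6% lower. Of 12 markers of smooth muscle and mesenchyme, 9 were higher with dox by at least 2-fold, their summed signal was 42181 with dox and 6092 without dox, and Cnn1 stood at the floor of 1 without dox. Tagln, Lum and Col3a1 led this list (5.14, 4.61 and 4.28). Of 9 cardiomyocyte markers 5 were higher by at least 2-fold, led by Myl4, Tnnt2 and Myh7 (3.87, 3.43 and 2.70), with a summed signal of 7290 with dox and 2412 without dox. Of 8 measured red cell markers 5 were lower and 3 higher by any amount, and 3 of the lower ones passed 2-fold, with sums of 2978 with dox and 6799 without dox, and the lowest were the embryonic globin gene Hbb-bh1 (-2.58), Alas2 (-1.18, dim on both arrays and named after its values were seen) and Hba-x, with 62.0 with dox and 140 without dox, followed by Hba-a1 (-0.74). The higher ones were Hemgn (0.47) and Slc4a1 (0.19), both dim, and Epor (0.31), named after their values were seen. The 7 endothelial markers had a median of -0.07 and sums of 28107 with dox and 30189 without dox, and Esam (-0.35), Icam2 (0.29) and Tie1 (-0.24) differed most. Of 7 measured macrophage markers none reached 2-fold, with sums of 5016 with dox and 3226 without dox, of which the mannose receptor gene Mrc1 made up 4149 with dox and 2314 without dox, and Csf1r (0.26) and Adgre1 (-0.25) differed less. None of 6 pluripotency markers and none of 9 measured housekeeping genes reached 2-fold, with medians of 0.18 and -0.04. Dppa5a (0.24) and Esrrb (-0.14) were the only pluripotency markers above the array medians, and Gusb (0.61), B2m (0.43) and Hprt (0.20) differed most among the housekeeping genes. The part of these markers' cells in the differences of the ETS factors was not tested.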

How the data were processed

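For each of 45037 probe sets the deposited table gave a linear signal intensity on each array, and its lowest value is exactly 1 on both arrays. Per the labels' protocols, 100 ng of total RNA per sample was amplified and biotin-labelled for an Affymetrix 3' array. The sources used here do not state how the authors summarised or scaled these values, and neither detection calls nor scanner files were used. Precision is limited by having 1 array per condition.

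Probe sets were named through the platform annotation: 34945 carried 1 symbol, 932 several (not named here) and 9160 none in that list. All 10 factors matched a RefSeq gene of assembly GRCm38.p6, which also gave the promoters. Signals were compared as log2(signal + 16), as deposited, with Python 3.11.15 and pandas 2.3.3, and the procedure was tested on simulated data. No test was possible, so genes were called at 2-fold. Named genes are all members, other ETS genes past 2-fold, up to 3 genes of each list with the largest absolute difference among those at or above the array median on either array, Kdr and Tek, and Mesp1, whose probe set gave 10977 with dox and 2433 without dox. Any other gene was picked with its values in view. The members and lists were chosen with earlier results of these data known. Alternatives changed the pseudocount, scaling, signal filter, probe sets and gene summary.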

Additional observations from a re-analysis of the deposited data

How the results depend on the processing

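Of 118 values recomputed under 8 alternatives, 110 stayed within the limits set for them and 8 moved further. The limits were 1.5 times for counts and, for log2 differences, the pooled SD of 0.38 between probe sets of a gene. These limits say little about small differences, as Elk3 (0.06 to -0.12) and Spi1 (0.02 to -0.15) changed direction within them after median scaling. Both signal filters kept every brightest ETS probe set, so the ETS values were the same with them as without. Etv2 and Spi1, with 1 probe set each, also could not move when marked probe sets were left out or probe sets were averaged. All these unmoved values are among the 110, so that count overstates how far the results were tried. Etv2 and Elf1, the only genes called, kept their direction, but Elf1 fell to 0.99 after median scaling. Median scaling left 0 ETS genes and 0 ETS probe sets 2-fold or more higher, and 5 ETS probe sets 2-fold or more lower. It also gave counts of 666 higher and 562 lower among all genes, against 867 and 372 as deposited, and quantile normalization gave 748 and 489. The shares of all probe sets past 2-fold after median scaling are not given here, so the ETS probe set counts have no matching background. Over all genes, counts past 2-fold were 1419 higher and 845 lower with a pseudocount of 1, 579 and 185 with a pseudocount of 64, and 418 and 168 with a filter on both arrays. The mean of all probe sets of a gene left 0 ETS genes higher and 3 lower, Etv2 (-1.56), Fli1 (-1.04) and Erg (-1.01), beside 678 higher and 296 lower of 18193 genes, and brought Elf1 to 0.70. Without the probe sets whose suffix marks probes shared between transcripts or genes, Elf2 stood at 0.50. The median of the ETS factors ran from -0.36 to -0.17 over the alternatives. No paired analysis was possible because there is 1 sample per group and the result comes from no test. Dim probe sets, and the single one of Spi1 not far above the array medians, could not be marked as detected or undetected.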
